A study of Mus musculus with 34 samples.

Results

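The RNA levels of 10 astrocyte genes were followed across 34 mouse brain libraries. The genes were taken by name: Gfap, Vim, Serpina3n, Cd44 and Osmr as genes of reactive astrocytes, and Aqp4, Slc1a2, Slc1a3, Aldh1l1 and Gja1 as genes of resting astrocytes. Each name matched a row of the deposited table, so the 10 genes stand among 16389 in all, and all 10 were among the 14710 genes that passed the filter on low values and were tested. The filter asked for at least 1 FPKM (fragments per kilobase of transcript, scaled to the mapped fragments of the library) in at least 3 libraries. Cd44 reached 1 FPKM in 8 libraries, none of them from WT CON mice or from cortex, and Osmr in 15, whereas the other 8 genes did so in all 34.

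The study asked what long-term replacement of microglia by bone marrow-derived myeloid cells does to the brain. WT CON mice were male C57BL/6 mice given vehicle, without irradiation. GFP-BM CON mice were C57BL/6 males that received 1000 cGy of whole-body irradiation, followed by bone marrow of CAG-EGFP mice, in which the ubiquitous CAG promoter drives a green fluorescent protein, and vehicle. GFP-BM REPOP mice had the same irradiation and marrow and, 3.5 months later, the CSF1R inhibitor PLX3397 in the diet (600 ppm for 14 days) to deplete microglia, with 6 months of recovery. Irradiation, marrow transplantation and the CAG-EGFP transgene were thus common to both GFP-BM groups, and the sources give both 1.5 and 4 months as the age of the mice at the start. Cortex, hippocampus and thalamus, the last dissected together with striatum, gave 3, 4 and 4 libraries for WT CON, 4, 4 and 3 for GFP-BM CON, and 4, 4 and 4 for GFP-BM REPOP. The libraries of a region came from separate mice, and most mice gave all 3 regions.

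Astrocytes tile the brain, clear glutamate and potassium from synapses and wrap capillaries with their endfeet. After injury, inflammation or irradiation they can become reactive: the intermediate filament genes Gfap and Vim, the protease inhibitor gene Serpina3n, the hyaluronan receptor gene Cd44 and the oncostatin M receptor gene Osmr are commonly used to follow that state, in which signals of the interleukin-6 family act through STAT3. Aqp4 (the endfoot water channel), Slc1a2 and Slc1a3 (the glutamate transporters GLT-1 and GLAST), Aldh1l1 (a folate enzyme) and Gja1 (the gap junction protein connexin 43) belong to the resting cell. Vim is also made by endothelial and ependymal cells and Cd44 by leukocytes. The libraries are of bulk tissue, in which fewer cells of a type and less RNA per cell cannot be told apart.

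The promoters of 4 members are shown because these genes were the ones called higher in hippocampus than in cortex in all 3 groups of mice. They are the RefSeq sequences (GRCm38.p6) ending 1 base before the annotated gene start, written 5′ to 3′ on the strand of the gene, with any match to the motifs given below in capitals. Gfap lies on chr11:102887336-102897200 and its sequence on chr11:102897201-102897450, minus strand. Vim lies on chr2:13574311-13582826 (sequence chr2:13574061-13574310), Serpina3n on chr12:104406646-104414334 (sequence chr12:104406458-104406645, 188 bases) and Gja1 on chr10:56377300-56390419 (sequence chr10:56377050-56377299), all on the plus strand.
Gfap: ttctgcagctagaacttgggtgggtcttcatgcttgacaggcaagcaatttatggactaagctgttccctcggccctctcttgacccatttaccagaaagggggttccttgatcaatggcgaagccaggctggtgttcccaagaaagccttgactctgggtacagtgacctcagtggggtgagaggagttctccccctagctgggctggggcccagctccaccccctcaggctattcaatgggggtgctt
Vim: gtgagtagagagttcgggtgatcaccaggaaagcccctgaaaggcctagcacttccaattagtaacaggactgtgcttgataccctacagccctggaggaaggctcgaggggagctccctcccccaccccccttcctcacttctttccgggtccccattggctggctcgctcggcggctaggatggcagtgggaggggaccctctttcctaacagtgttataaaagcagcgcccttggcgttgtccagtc
Serpina3n: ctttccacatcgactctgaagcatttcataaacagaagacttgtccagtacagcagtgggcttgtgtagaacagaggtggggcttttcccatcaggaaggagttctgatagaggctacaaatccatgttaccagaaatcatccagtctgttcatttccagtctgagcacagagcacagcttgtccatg
Gja1: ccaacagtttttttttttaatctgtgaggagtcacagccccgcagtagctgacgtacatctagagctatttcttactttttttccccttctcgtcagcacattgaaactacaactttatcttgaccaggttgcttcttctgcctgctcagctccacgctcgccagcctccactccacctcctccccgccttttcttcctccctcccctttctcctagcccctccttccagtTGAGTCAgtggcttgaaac

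Motifs were searched on both strands in the 250 bases before the start in the RefSeq promoter entry. For Serpina3n that window ran into the annotated gene span, so only its first 188 bases are shown above. The letters were TTCNNNGAA for a STAT element, TGANTCA for AP-1, TTGGC and GCCAA with 5 bases between them for NFI and GGGCGG for a GC box. Among 32851 promoters of the RefSeq table, 7.02% held the STAT letters, 6.75% the AP-1 letters, 0.0365% the NFI letters and 32.7% the GC box. Of the 9 members with an entry, Gja1 held 1 AP-1 match, Slc1a3 held 1 STAT match and 1 GC box, Osmr 2 GC boxes and Aldh1l1 1 GC box, with no 2 matches overlapping. Gfap, Vim, Serpina3n, Cd44 and Slc1a2 held none of these letters in this window. Aqp4 had no entry. The remaining members lie at chr2:102811141-102901669 (Cd44), chr15:6813568-6874968 (Osmr), chr2:102658239-102790784 (Slc1a2), chr15:8634124-8710807 (Slc1a3) and chr6:90550768-90599171 (Aldh1l1).

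Libraries held 17085018 to 26010509 recovered reads on genes. Several stood apart. In 3 of the 12 hippocampal libraries (WT CON replicate 2, GFP-BM REPOP replicates 1 and 4) none of 5 hippocampus markers, Prox1, Wfs1, Fibcd1, Ociad2 and Neurod1, was above its highest cortical library, whereas 1 to 4 of them were in each of the other 9. Prox1, a transcription factor of hippocampal granule cells, was 0.834 to 2.80 FPKM in those 3 and 2.75 to 17.0 in the other 9, against 4.60 at most in cortex. Choroid plexus markers, summed over 5 genes, reached 6466 FPKM in WT CON hippocampus replicate 1 and 6338 in GFP-BM CON hippocampus replicate 4, against 22.9 and 48.8 at the lowest in those groups and 286 at most in GFP-BM REPOP hippocampus. Libraries also differed in how strongly genes rich in G and C were represented. The GC measure used here is the median log2 level of the tenth of genes with the highest GC content (at least 58.2%) minus that of the tenth with the lowest (at most 41.5%). It was 0.411 to 1.24 in cortex and reached 3.39 in WT CON hippocampus replicate 1 and 3.65 in WT CON thalamus replicate 2. Many hippocampal differences of single members are therefore given with and without the 3 libraries with no marker above cortex. The hippocampal treatment differences of Vim, Slc1a3 and Aldh1l1 are not given without them. Values of a fit corrected for GC content and length stand beside some of the results they move.

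On the per-length FPKM scale the glutamate transporters led the set, with medians over the 34 libraries of 198 FPKM for Slc1a2 and 112 for Slc1a3. Gfap (72.2) and Gja1 (55.7) followed, then Aqp4 (17.6), Aldh1l1 (16.3), Serpina3n (15.1) and Vim (13.2), whose ranges overlapped. Osmr (0.988) and Cd44 (0.804) were near the filter, on 24 to 218 and 33 to 188 reads per library. The highest library exceeded the lowest by 9.71-fold for Aqp4, 7.93-fold for Osmr, 6.58-fold for Serpina3n, 6.20-fold for Slc1a2 and 5.62-fold for Gfap, but by only 2.45-fold for Aldh1l1, 2.05-fold for Slc1a3 and 2.01-fold for Gja1. Slc1a2 was uniform in cortex but not elsewhere: it lay between 245 and 274 FPKM in its 11 libraries and between 44.3 and 274 in the 12 hippocampal ones.

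**Figure D1:**
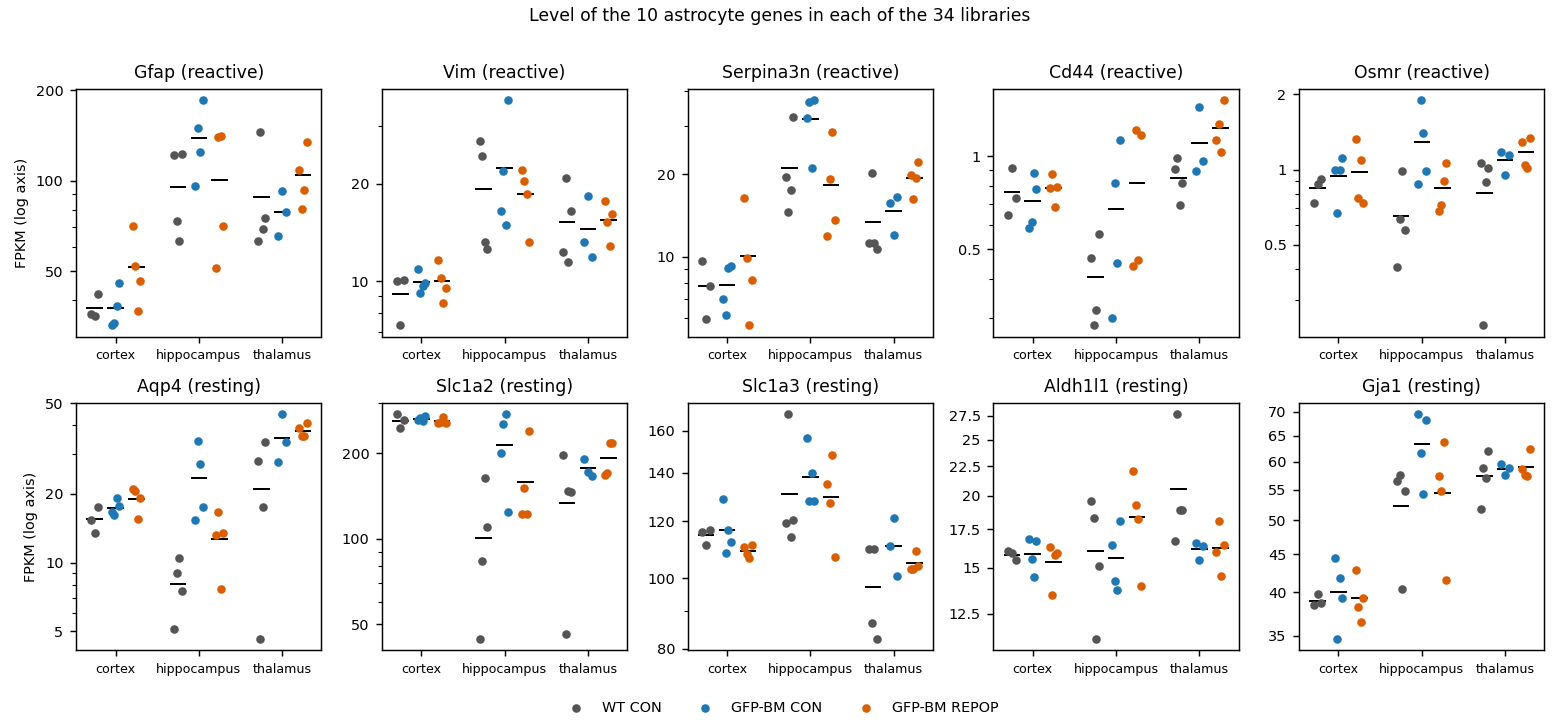
Level of each of the 10 genes (FPKM, log axis) in every library, by region and group, with points for libraries and lines for group means. Gfap, Vim and Serpina3n are lowest in cortex, and Slc1a2 and Aqp4 spread most in hippocampus and in WT CON thalamus.

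None of the 10 genes passed an adjusted p under 0.05 (limma, Benjamini-Hochberg over 14710 genes) in any of the 9 comparisons between groups within a region. Of the 90 values, 11 had an unadjusted p under 0.05, and the voom fit on recovered reads also called 0. Few genes of any kind passed, though single libraries moved the counts. In cortex the share of all genes called was 0.32% for GFP-BM CON against WT CON, 0.0476% for GFP-BM REPOP against GFP-BM CON and 0.734% for GFP-BM REPOP against WT CON. In hippocampus these shares were 0.0%, 0.0272% and 0.0136%, and in thalamus 0.0%, 0.0% and 0.836%. For GFP-BM CON against WT CON in hippocampus, 963 genes were called without WT CON replicate 3 and 795 without GFP-BM CON replicate 4, against 0 with all libraries. Without WT CON thalamus replicate 1, 1179 genes were called for GFP-BM CON and 1788 for GFP-BM REPOP against WT CON, against 0 and 123. The comparisons within a region share their groups, so they are not independent of each other. The 9 differences of these differences between regions also gave 0 calls among the members, with a smallest adjusted p of 0.382 for Serpina3n. Hippocampus minus cortex, thalamus minus cortex and thalamus minus hippocampus called 0.0%, 0.0% and 0.0% of all genes for GFP-BM CON against WT CON, 0.177%, 0.0% and 0.0272% for GFP-BM REPOP against GFP-BM CON, and 0.034%, 0.0% and 0.034% for GFP-BM REPOP against WT CON. 7 of the 90 had an unadjusted p under 0.05. These were Aqp4 and Slc1a2 for GFP-BM CON against WT CON, hippocampus minus cortex (10.1% of all genes), Gfap and Serpina3n for GFP-BM REPOP against GFP-BM CON, hippocampus minus cortex (8.52%) and thalamus minus hippocampus (7.64%), and Aldh1l1 for GFP-BM REPOP against WT CON, thalamus minus hippocampus (9.99%).

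The largest treatment difference of a member was that of Aqp4 in the hippocampus of GFP-BM CON against WT CON mice. There 9 of the 10 log2 differences were positive, with a median of 0.54 against -0.03 over all genes. The 3 with an unadjusted p under 0.05 were Aqp4, Slc1a2 and Osmr, among 23.9% of all genes. In GFP-BM REPOP against GFP-BM CON hippocampus 8 of 10 were negative, with a median of -0.32 against -0.01 over all genes, and Aqp4 and Serpina3n had an unadjusted p under 0.05, among 11.7% of all genes. Without the 3 hippocampal libraries with no marker above cortex, 10 of 10 were positive in the first comparison with a median of 0.43, and 7 of 10 were negative in the second with a median of -0.10. Striatum markers, summed over 6 genes, were 325, 401, 395 and 47.8 FPKM in WT CON hippocampus and 79.6 to 132 in GFP-BM CON, and neuron markers, summed over 5 genes, were 550 to 1397 and 1231 to 1564. Their part in these differences was not tested. In thalamus, GFP-BM REPOP against WT CON gave 9 of 10 positive, with a median of 0.39 against -0.05, and Aqp4, Serpina3n and Cd44 were among the 25.0% of all genes with an unadjusted p under 0.05. In cortex the medians of the members stayed between 0.02 and 0.09, and the unadjusted p under 0.05 were those of Gfap in GFP-BM REPOP against GFP-BM CON (4.27% of all genes) and of Gfap and Aqp4 in GFP-BM REPOP against WT CON (14.3%). Groups did not overlap for 5 of the 90 values. These were Aqp4 in hippocampus of GFP-BM CON against WT CON (13.7% of all genes), Aldh1l1 in thalamus of the same groups (23.1%), Aqp4 and Cd44 in thalamus of GFP-BM REPOP against WT CON (18.8%), and Slc1a3 in cortex of those groups (9.48%).

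**Figure D2:**
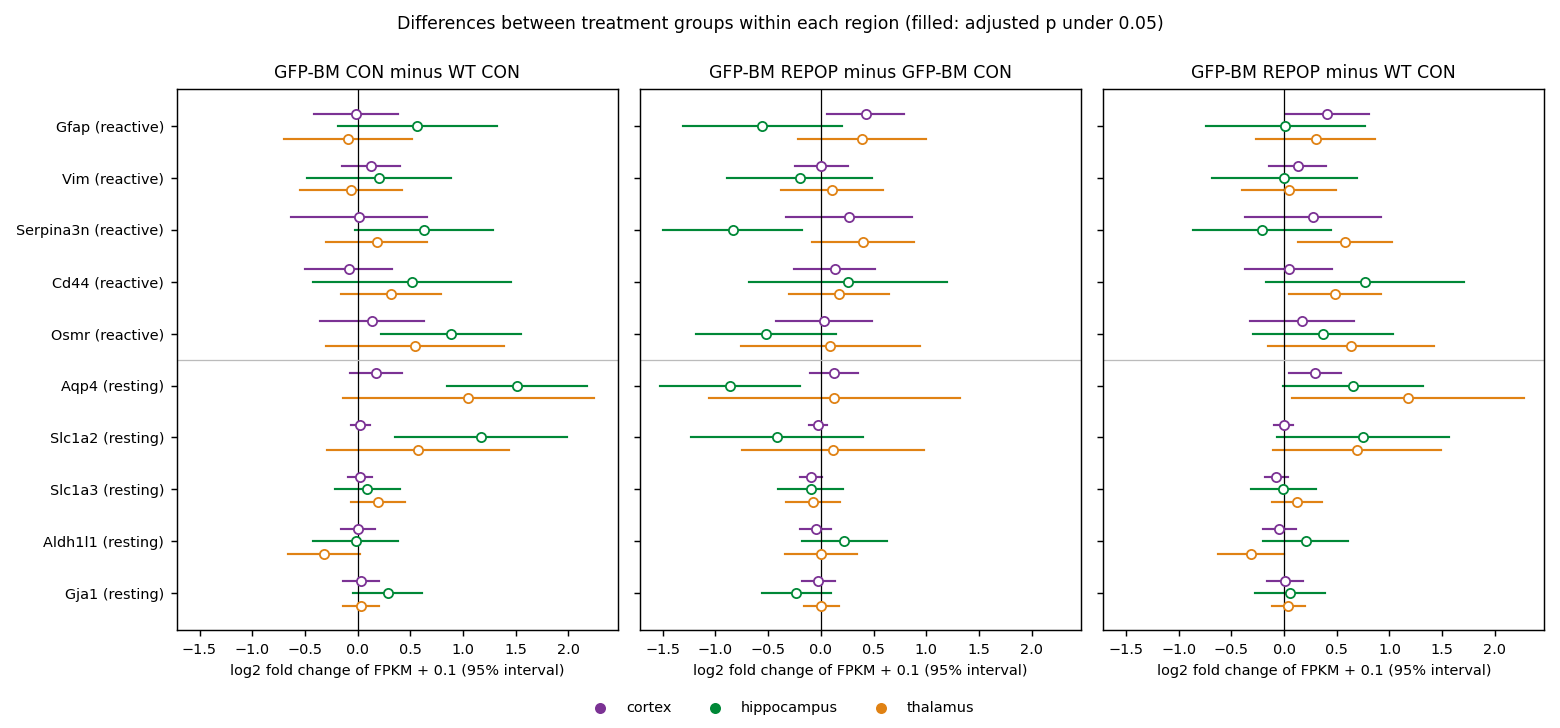
Log2 difference in FPKM + 0.1 between groups for each gene and region, with lines for the 95% confidence interval of the limma fit and open points for values that did not pass. In hippocampus the GFP-BM CON against WT CON difference of Aqp4 is the highest at 1.51, and no gene passes the adjusted threshold.

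Between regions more member values passed. Over the 9 region comparisons 28 of 90 values passed, in 1 limma fit over all 9 groups, the mouse being a random block. The treatment comparisons above came from fits within a region, so the counts rest on unlike models. Without the block, the fit of all 9 groups called 28 region values and 4 of the 90 treatment values. It shares 1 estimate of the spread among regions. The median residual SD on the log2 scale was 0.118 in cortex, 0.292 in hippocampus and 0.225 in thalamus. In hippocampus against cortex 5, 4 and 4 members were called in WT CON mice, GFP-BM CON mice and GFP-BM REPOP mice, the order kept in what follows, where 36.9%, 19.8% and 17.5% of all genes were. In thalamus against cortex 4, 2 and 3 members were called (30.0%, 12.9% and 14.8% of all genes), and in thalamus against hippocampus 3, 1 and 2 (17.7%, 14.3% and 34.3%). The members called higher in hippocampus than in cortex in all 3 groups were the reactive genes Gfap, Vim and Serpina3n and the resting gene Gja1. Cd44 was lower there in each group (-0.79, -0.19 and -0.07), and Osmr in WT CON and GFP-BM REPOP mice (-0.38 and -0.18). The median log2 difference of the reactive members was 1.00, 1.07 and 0.87 in the 3 groups, with 3 of 5 called in each. That of the resting members was -0.01, 0.24 and 0.24. Without the 3 libraries with no marker above cortex these medians were 0.85, 1.07 and 0.96, with 3 of 5 called in each, and -0.09, 0.24 and 0.29.

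**Figure D3:**
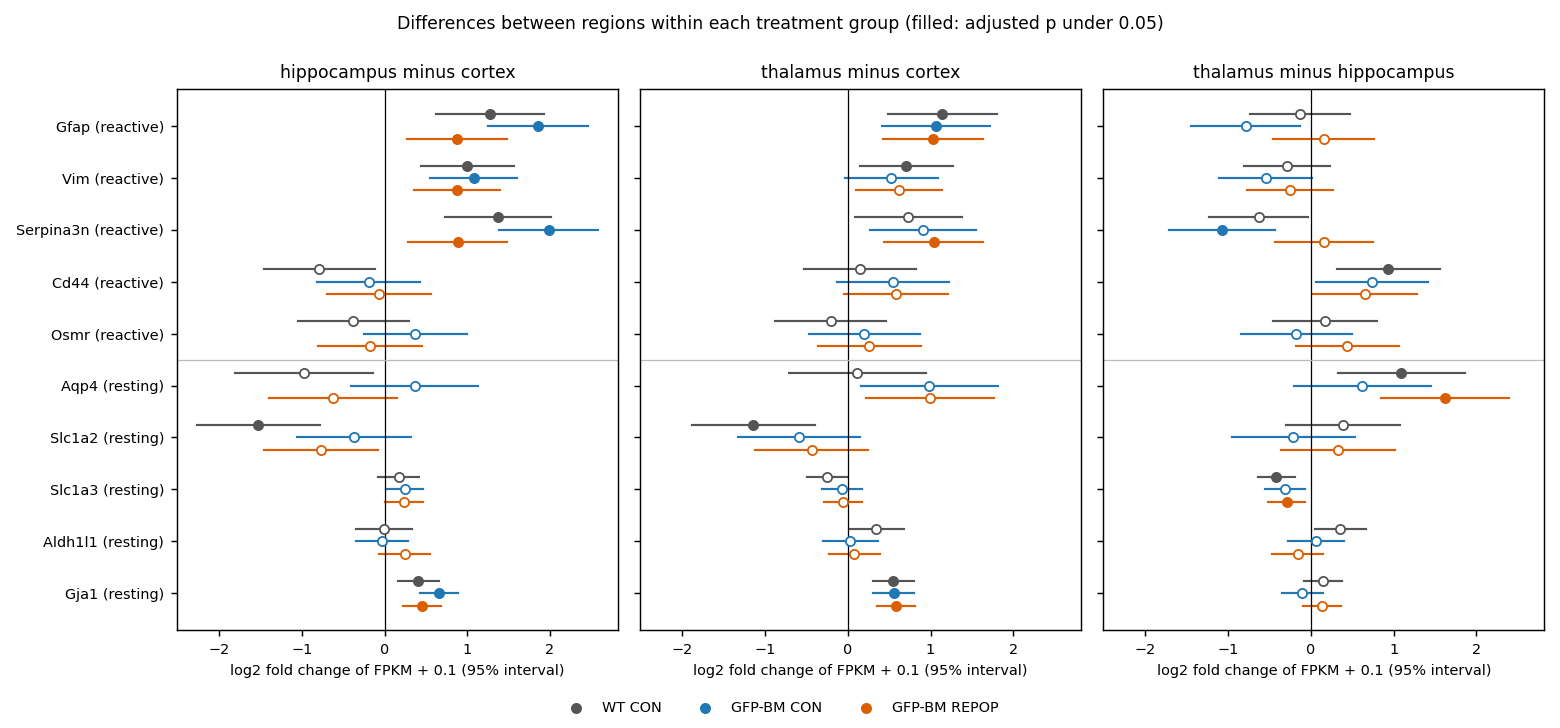
Log2 difference in FPKM + 0.1 between regions for each gene within each group, with 95% confidence intervals and filled points for an adjusted p under 0.05. Gfap, Vim, Serpina3n and Gja1 lie above 0 for hippocampus against cortex in all 3 groups, whereas Slc1a2 lies below 0.

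Gfap, the main filament gene of reactive astrocytes, was 35.9, 35.4 and 41.9 FPKM in WT CON cortex, 33, 33.5, 38.2 and 45.5 in GFP-BM CON cortex and 70.8, 51.9, 36.8 and 46.5 in GFP-BM REPOP cortex. WT CON and GFP-BM CON overlapped, and 3 of the 4 GFP-BM REPOP libraries were above both. The log2 difference was 0.43 (SE 0.17, 95% interval 0.06 to 0.79) against GFP-BM CON and 0.41 (SE 0.18) against WT CON. These had unadjusted p of 0.0259 and 0.0425 from limma and adjusted p of 1.00 and 0.334, so neither passed.
In hippocampus Gfap was 122, 73.6, 62.9 and 122 FPKM in WT CON, 95.9, 150, 125 and 185 in GFP-BM CON and 51.3, 139, 141 and 70.7 in GFP-BM REPOP. All 3 groups overlapped. The GFP-BM CON mean of 139 ± 37.9 (SD, n = 4) stood 0.56 above WT CON (adjusted p = 0.337), and GFP-BM REPOP was -0.55 from GFP-BM CON (adjusted p = 0.524). The 2 low GFP-BM REPOP libraries were those with no marker above cortex, and without the 3 such libraries the 2 differences were 0.46 and 0.05.
In thalamus the values were 63.0, 146, 69.0 and 75.3 FPKM, then 65.5, 92.2 and 78.8, then 109, 80.6, 93.3 and 134. WT CON replicate 2, at 146, was the highest of the region. The difference between GFP-BM REPOP and WT CON was 0.30 with it and 0.57 without it (adjusted p = 0.410 and 0.0832).
Against cortex, Gfap rose in hippocampus by 1.27 in WT CON, 1.86 in GFP-BM CON and 0.88 in GFP-BM REPOP mice (2.42-fold, 3.62-fold and 1.83-fold, with adjusted p of 0.00344, 7.76e-05 and 0.0411). It also rose in thalamus, by 1.14, 1.07 and 1.03 (adjusted p of 0.0109, 0.0248 and 0.0175). Hippocampus and cortex did not overlap in WT CON mice, where 42.6% of all genes did not. The GFP-BM REPOP hippocampal difference was 0.68 with the GC correction (adjusted p = 0.0605), and without the 3 libraries with no marker above cortex it was 1.47 (adjusted p = 0.00293), with 1.37 in WT CON mice. Leaving out any of GFP-BM REPOP cortex replicates 2, 3 and 4 or hippocampus replicates 2 and 3 also ended that call, with adjusted p of 0.0723 to 0.173. The WT CON thalamic call was 0.88 (adjusted p = 0.0560) without thalamus replicate 2. The GFP-BM CON one ended without cortex replicate 1 or 2 or thalamus replicate 2 or 3, and the GFP-BM REPOP one without cortex replicate 3 or thalamus replicate 4.

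Serpina3n, a secreted serine protease inhibitor, followed Gfap closely. In cortex it was 9.68, 5.94 and 7.86 FPKM in WT CON, 7.01, 6.12, 9.13 and 9.22 in GFP-BM CON and 16.4, 9.86, 5.64 and 8.25 in GFP-BM REPOP. The groups overlapped, and GFP-BM REPOP replicate 1, which was also the highest for Gfap, stood above all others.
Hippocampal levels were 19.5, 14.6, 17.5 and 32.3 FPKM in WT CON, 32.1, 36.6, 21.1 and 37.1 in GFP-BM CON and 12, 19.2, 28.4 and 13.6 in GFP-BM REPOP. GFP-BM CON held the 2 highest values. Its difference from WT CON was 0.63 (SE 0.30, adjusted p = 0.226), or 0.48 without the 3 libraries with no marker above cortex, and that of GFP-BM REPOP from GFP-BM CON was -0.84 (SE 0.30, unadjusted p = 0.0163 from limma, adjusted p = 0.336), or -0.40 without them.
In thalamus it was 11.2, 20.2, 11.3 and 10.7 FPKM in WT CON, 15.6, 12 and 16.5 in GFP-BM CON and 19.8, 16.2, 19.4 and 22.1 in GFP-BM REPOP. Apart from WT CON replicate 2, every GFP-BM REPOP library was above every WT CON library. The difference was 0.58 (SE 0.20, 95% interval 0.13 to 1.03, adjusted p = 0.147). It passed without WT CON replicate 2 (0.80, adjusted p = 0.0351, among 73 genes called) and with the GC correction (0.76, adjusted p = 0.0441), where 134 genes in all were called against 123 in the uncorrected fit.
Against cortex, Serpina3n rose in hippocampus by 1.37, 1.98 and 0.88 (2.58-fold, 3.95-fold and 1.84-fold, adjusted p of 0.00174, 2.57e-05 and 0.0362). The last was 1.30 without the 3 libraries with no marker above cortex and 0.68 with the GC correction (adjusted p of 0.00779 and 0.0682), and ended under the same 5 omissions as for Gfap. In thalamus against cortex it passed in GFP-BM REPOP mice (1.04, adjusted p = 0.0144), though not without cortex replicate 3 (0.81, adjusted p = 0.0847). There the values were 0.73 in WT CON and 0.91 in GFP-BM CON mice (adjusted p of 0.0732 and 0.0546). The latter passed with the GC correction (0.86, adjusted p = 0.0363) and in 6 of the 34 fits that left out a library, each from another group of mice, among them WT CON thalamus replicate 2 (adjusted p = 0.0371). In GFP-BM CON mice it was lower in thalamus than in hippocampus (-1.08, adjusted p = 0.0204), without overlap, as for 32.4% of all genes, and still called without the 3 libraries with no marker above cortex (adjusted p = 0.0123). That call ended without hippocampus replicate 4 (adjusted p = 0.0527) or thalamus replicate 2 (adjusted p = 0.113).

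Vim, the second filament gene, was 7.32 to 11.6 FPKM in all 11 cortical libraries, with group means of 9.16 ± 1.60 (SD, n = 3), 9.92 ± 0.729 (n = 4) and 9.98 ± 1.29 (n = 4) in the 3 groups. In hippocampus it was 27.1, 24.3, 13.2 and 12.5 FPKM in WT CON, 16.4, 21.9, 14.9 and 36.1 in GFP-BM CON and 22.1, 20.4, 18.6 and 13.2 in GFP-BM REPOP. The groups overlapped. GFP-BM CON replicate 4 and WT CON replicate 1 had the highest ependymal marker sums of their groups (141 and 91.4 FPKM) and also the highest Vim. In GFP-BM REPOP it was otherwise: the library highest for Vim, replicate 1, had the lowest ependymal sum (12.65 FPKM). The highest sum of that group (33.7 FPKM) was in replicate 2. The part of ependymal cells in the Vim values was not tested.
Vim rose in hippocampus against cortex by 1.00, 1.07 and 0.87 in the 3 groups (adjusted p of 0.00618, 0.00396 and 0.0188). Every hippocampal library was above every cortical one, though lack of overlap between these regions was common, at 42.6% of all genes in WT CON mice alone. The share over the pooled groups is not given here. The 3 libraries with no marker above cortex changed little here (0.85, 1.07 and 0.96 without them). Only the GFP-BM REPOP call was lost on leaving out a library, with adjusted p of 0.0505 to 0.0604 without cortex replicate 3 or hippocampus replicate 2 or 3. In thalamus, where Vim was 11.5 to 20.9 FPKM, the WT CON difference from cortex of 0.71 barely passed (adjusted p = 0.0497) and passed in 10 of 34 fits that left out a library, including those of other groups. Without WT CON thalamus replicate 2 or cortex replicate 2 it was 0.54 in each (adjusted p of 0.186 and 0.190).

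Cd44, the hyaluronan receptor, was 0.586 to 0.914 FPKM in cortex, with 0.643, 0.914 and 0.734 in WT CON, 0.586, 0.611, 0.883 and 0.784 in GFP-BM CON and 0.789, 0.874, 0.687 and 0.792 in GFP-BM REPOP. Hippocampal values were 0.468, 0.284, 0.317 and 0.558 in WT CON, 0.299, 0.816, 0.451 and 1.13 in GFP-BM CON and 0.440, 1.21, 0.460 and 1.17 in GFP-BM REPOP. The cortical groups covered the same range, while in hippocampus 2 libraries of each transplanted group stood above every WT CON library. The GFP-BM REPOP against WT CON difference in hippocampus was 0.77 with an adjusted p of 0.549, and 0.67 without the 3 libraries with no marker above cortex.
In thalamus Cd44 was 0.905, 0.985, 0.696 and 0.821 FPKM in WT CON, 0.893, 1.44 and 0.967 in GFP-BM CON and 1.13, 1.27, 1.03 and 1.51 in GFP-BM REPOP. Every GFP-BM REPOP library was above every WT CON library. The difference was 0.49 (SE 0.20, 95% interval 0.05 to 0.92, adjusted p = 0.179) and was -0.05 with the GC correction. Myeloid markers, summed over Ptprc, Aif1, Csf1r, Cx3cr1, Ms4a7 and Lyz2, were 131 to 220 FPKM in those GFP-BM REPOP libraries, against 50.2 to 87.6 in WT CON and 62.8 to 74.5 in GFP-BM CON. In cortex they were 85.4 to 123 against 42.5 to 45.7 and 37.8 to 45.1, and in hippocampus 78.5 to 168 against 48.1 to 74.0 and 44.7 to 113. The part of leukocytes in the Cd44 values was not tested.
Against cortex, Cd44 in WT CON hippocampus was at -0.79 (adjusted p = 0.0597), without overlap, as for 42.6% of all genes. It was at -0.10 with the GC correction and -0.67 without the 3 libraries with no marker above cortex. It passed in 4 of 34 fits that left out a library, including that without WT CON hippocampus replicate 4 (-0.92, adjusted p = 0.0413).
Between regions Cd44 passed in 1 comparison with all libraries: in WT CON mice it rose in thalamus against hippocampus by 0.94 (adjusted p = 0.0337), without overlap, as for 9.9% of all genes. The call ended without the 3 libraries with no marker above cortex (0.81, adjusted p = 0.0657), with the GC correction (0.72, adjusted p = 0.140), and without hippocampus replicate 2 or 3 or thalamus replicate 1 or 4. The same difference was 0.74 in GFP-BM CON mice (adjusted p = 0.135) and passed without hippocampus replicate 4 (1.00, adjusted p = 0.0405), and 0.65 in GFP-BM REPOP mice (adjusted p = 0.0975), passing without hippocampus replicate 2 or 4 (0.87 and 0.85, adjusted p of 0.0369 and 0.0362).

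Osmr, which pairs with the shared chain of the interleukin-6 receptors to bind oncostatin M, was 0.673 to 1.32 FPKM in cortex, and its groups overlapped there. In hippocampus it was 0.408, 0.633, 0.986 and 0.571 FPKM in WT CON, 0.879, 1.89, 1.40 and 0.989 in GFP-BM CON and 0.686, 0.720, 0.904 and 1.07 in GFP-BM REPOP. GFP-BM CON overlapped WT CON by 1 library on each side. The difference was 0.89 (SE 0.31, 95% interval 0.22 to 1.55, unadjusted p = 0.0130 from limma, adjusted p = 0.120), and GFP-BM REPOP was -0.52 from GFP-BM CON (adjusted p = 0.507). These were 0.90 and -0.56 without the 3 libraries with no marker above cortex (adjusted p of 0.257 and 0.590). In the fit of all 9 groups together the first difference passed (adjusted p = 0.0379). That fit shares 1 estimate of the spread among regions whose median residual SD on the log2 scale was 0.118 in cortex, 0.292 in hippocampus and 0.225 in thalamus. It called 2849 genes in this comparison, against 0 within the region.
In thalamus Osmr was 1.06, 0.238, 0.896 and 1.02 FPKM in WT CON, 1.17, 0.949 and 1.15 in GFP-BM CON and 1.29, 1.04, 1.02 and 1.34 in GFP-BM REPOP. WT CON replicate 2 was the lowest library of the study for Osmr. The GFP-BM REPOP against WT CON difference was 0.64 with it and 0.21 without it (adjusted p of 0.250 and 0.473). Osmr was called in no region comparison.

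Aqp4, the endfoot water channel, was the most variable member. In cortex it was 15.4, 13.4 and 17.6 FPKM in WT CON, 16.7, 16.1, 19.2 and 17.6 in GFP-BM CON and 21.0, 20.6, 15.5 and 19.1 in GFP-BM REPOP. The groups overlapped, with a difference of 0.30 between GFP-BM REPOP and WT CON (SE 0.11, adjusted p = 0.286).
In hippocampus Aqp4 was 5.13, 8.95, 10.5 and 7.52 FPKM in WT CON, 15.3, 34.3, 27.2 and 17.5 in GFP-BM CON and 13.2, 16.6, 7.64 and 13.5 in GFP-BM REPOP. Every GFP-BM CON library was above every WT CON library, and GFP-BM REPOP lay between and overlapped both. The GFP-BM CON against WT CON difference was 1.51 (SE 0.31, 95% interval 0.85 to 2.18, 2.86-fold) with an adjusted p of 0.0715, the smallest of any member in a treatment comparison. It passed in 2 of the 12 fits that left out a library (1.66 and adjusted p = 0.0419 without WT CON replicate 3, and 1.63 and 0.0350 without GFP-BM CON replicate 4), in which 963 and 795 genes were called, and in the fit of all 9 groups (adjusted p = 0.00817). With the GC correction it was 0.78 (adjusted p = 0.0567), and without the 3 libraries with no marker above cortex it was 1.58 (adjusted p = 0.225). GFP-BM REPOP was -0.86 from GFP-BM CON (SE 0.31, unadjusted p = 0.0154 from limma, adjusted p = 0.333), or -0.50 with the GC correction and -0.98 without those libraries, and 0.65 above WT CON (adjusted p = 0.519), or 0.60 without them.
In thalamus Aqp4 was 27.8, 4.61, 17.6 and 33.9 FPKM in WT CON, 27.5, 44.8 and 33.7 in GFP-BM CON and 38.9, 35.8, 35.8 and 41.1 in GFP-BM REPOP. Every GFP-BM REPOP library was above every WT CON library, and WT CON replicate 2 was far below the rest. The difference was 1.18 (SE 0.50, adjusted p = 0.186), 0.57 without that replicate and 0.34 with the GC correction. In the fit of all 9 groups it passed (adjusted p = 0.0350), among 1954 genes called.
Between thalamus and hippocampus Aqp4 was higher in thalamus by 1.09 in WT CON (adjusted p = 0.0431) and 1.62 in GFP-BM REPOP mice (3.07-fold, adjusted p = 0.00216), without overlap only in the latter, where 34.2% of all genes did not overlap. The first call ended without the 3 libraries with no marker above cortex (1.14, adjusted p = 0.0619) and without any of 6 single WT CON libraries (hippocampus replicates 1, 2 and 4, thalamus replicates 1, 3 and 4), and was 1.70 without thalamus replicate 2 (adjusted p = 6.38e-05). The second kept an adjusted p under 0.05 in all 34 such fits, and was 1.75 without the 3 libraries with no marker above cortex (adjusted p = 0.00831). In GFP-BM CON mice the value was 0.62 (adjusted p = 0.315). Against cortex, hippocampal Aqp4 was at -0.98, 0.36 and -0.62 in the 3 groups (adjusted p of 0.0586, 0.515 and 0.247), at -1.02, 0.36 and -0.75 without those 3 libraries, and at 0.03, 0.88 and 0.20 with the GC correction, of which the second passed (adjusted p = 0.00488). The WT CON value passed without WT CON thalamus replicate 2 (adjusted p = 0.00419), and in 3 other such fits. Against cortex the thalamic difference was 0.12, 0.99 and 1.00 (adjusted p of 0.848, 0.113 and 0.0739). With the GC correction it passed in all 3 groups (0.82, 1.07 and 1.05, adjusted p of 0.0118, 0.00198 and 0.000975), and without WT CON thalamus replicate 2 it passed in both GFP-BM groups (adjusted p of 0.0111 and 0.00521).

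Slc1a2, the main glutamate transporter of forebrain astrocytes, hardly varied in cortex, at 260 ± 14.8 FPKM (SD, n = 3) in WT CON, 264 ± 5.16 (n = 4) in GFP-BM CON and 259 ± 5.94 (n = 4) in GFP-BM REPOP. The 95% intervals of its 3 cortical differences lay between -0.11 and 0.11.
In hippocampus Slc1a2 was 44.3, 83.4, 164 and 110 FPKM in WT CON, 200, 254, 274 and 124 in GFP-BM CON and 122, 150, 122 and 239 in GFP-BM REPOP. All but 1 GFP-BM CON library were above every WT CON library. The difference was 1.17 (SE 0.38, 95% interval 0.36 to 1.99, unadjusted p = 0.00868 from limma, adjusted p = 0.105). It passed without WT CON replicate 3 (1.46, adjusted p = 0.0433, in the fit that called 963 genes) and in the fit of all 9 groups (adjusted p = 0.0168), was 0.83 without WT CON replicate 1 (adjusted p = 0.243) and 0.49 with the GC correction. GFP-BM REPOP was -0.42 from GFP-BM CON (adjusted p = 0.646), and -0.02 with the GC correction. Without the 3 libraries with no marker above cortex the 2 differences were 1.13 and -0.59 (adjusted p of 0.243 and 0.615).
In thalamus it was 197, 46.1, 147 and 146 FPKM in WT CON, 191, 172 and 167 in GFP-BM CON and 167, 170, 216 and 218 in GFP-BM REPOP. WT CON replicate 2 was far below every other library of the region. The GFP-BM REPOP against WT CON difference was 0.69 with it and 0.24 without it (adjusted p of 0.233 and 0.308).
Slc1a2 fell in WT CON hippocampus against cortex by 1.53 on the log2 scale (adjusted p = 0.00226), without overlap, as for 42.6% of all genes. The value was -0.54 with the GC correction (adjusted p = 0.0146) and -1.18 without hippocampus replicate 1 (adjusted p = 0.0151). Without the 3 libraries with no marker above cortex it was -1.47 (adjusted p = 0.00582), and -0.93 in GFP-BM REPOP mice (adjusted p = 0.0851). In both GFP-BM groups it did not pass, and the values were -0.38 and -0.77 (adjusted p of 0.444 and 0.109), and 0.13 and 0.09 with the GC correction. The GFP-BM REPOP value passed without WT CON thalamus replicate 2 (adjusted p = 0.0313) or its own hippocampus replicate 4 (-0.98, adjusted p = 0.0392). In WT CON thalamus against cortex it fell by 1.14 (adjusted p = 0.0215). Without thalamus replicate 2 the value was -0.69 (adjusted p = 0.117), and without cortex replicate 1 or 3 the adjusted p was 0.0601 or 0.0679.

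Slc1a3, the second astrocytic glutamate transporter, was 82.4 to 169 FPKM over all libraries, with cortical values of 116, 111 and 117 in WT CON, 129, 108, 117 and 112 in GFP-BM CON and 111, 108, 107 and 111 in GFP-BM REPOP. GFP-BM REPOP was below WT CON without overlap, by a difference of only -0.07 (95% interval -0.19 to 0.04, adjusted p = 0.566). In hippocampus its group means were 131 ± 25.4, 138 ± 13.3 and 129 ± 17.1 (SD, n = 4 each) and in thalamus 97.3 ± 14.7 (n = 4), 111 ± 10.3 (n = 3) and 105 ± 2.89 (n = 4). Against cortex its hippocampal differences were 0.17, 0.24 and 0.24, none called, but 0.51, 0.39 and 0.50 and all called with the GC correction (adjusted p of 0.0104, 0.0451 and 0.0155). Without the 3 libraries with no marker above cortex they were 0.05, 0.24 and 0.33, the last 2 called (adjusted p of 0.741, 0.0468 and 0.0235), and the GFP-BM REPOP value also passed without hippocampus replicate 4 alone (0.32, adjusted p = 0.0357). It was lower in thalamus than in hippocampus, at -0.42 in WT CON (adjusted p = 0.00940) and -0.29 in GFP-BM REPOP mice (adjusted p = 0.0413), against -0.31 in GFP-BM CON mice (adjusted p = 0.0773). Without the 3 libraries with no marker above cortex all 3 values passed (-0.29, -0.39 and -0.31, adjusted p of 0.0295, 0.00798 and 0.0212 in WT CON, GFP-BM REPOP and GFP-BM CON). The WT CON call ended without thalamus replicate 4 (adjusted p = 0.0578), and the GFP-BM REPOP call without any of 7 of the 8 libraries compared, hippocampus replicate 4 being the exception (adjusted p of 0.0524 to 0.156).

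Aldh1l1, a cytosolic folate enzyme much used as a marker of all astrocytes, was 11.3 to 22 FPKM in every library but WT CON thalamus replicate 2, at 27.7. In thalamus it was 16.7, 27.7, 18.9 and 18.9 FPKM in WT CON, 16.6, 15.5 and 16.4 in GFP-BM CON and 15.9, 18.1, 14.5 and 16.4 in GFP-BM REPOP. GFP-BM CON was below WT CON without overlap, and GFP-BM REPOP overlapped it. The differences were -0.32 and -0.31 (adjusted p of 0.259 and 0.203), or -0.16 and -0.16 without WT CON replicate 2. Aldh1l1 was called in no comparison of regions, where its differences from cortex ran from -0.03 to 0.35. The thalamic value of 0.35 in WT CON mice passed without thalamus replicate 1 (0.44, adjusted p = 0.0437), and that against hippocampus, also 0.35 (adjusted p = 0.104), with the GC correction (0.44, adjusted p = 0.0107), without the 3 libraries with no marker above cortex (0.43, adjusted p = 0.0420) and without hippocampus replicate 1 (0.46, adjusted p = 0.0433).

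Gja1, the gap junction gene, was 38.5, 39.8 and 38.7 FPKM in WT CON cortex, 44.6, 34.6, 41.8 and 39.3 in GFP-BM CON cortex and 43.0, 38.3, 36.5 and 39.3 in GFP-BM REPOP cortex. In hippocampus it was 56.6, 57.6, 40.5 and 54.7 in WT CON, 69.5, 61.5, 54.3 and 68.3 in GFP-BM CON and 57.5, 54.8, 63.9 and 41.5 in GFP-BM REPOP. In thalamus all 11 libraries lay between 51.8 and 62.4. Groups overlapped within every region, while all but 2 hippocampal libraries and all thalamic ones were above the highest cortical library. Between hippocampus and cortex of WT CON mice alone, 42.6% of all genes did not overlap. The share of all genes so separated over pooled groups, or between thalamus and cortex, is not given here. Its 3 hippocampal differences between groups were 0.28, -0.23 and 0.05, none with an adjusted p under 0.2, and 0.33, -0.09 and 0.24 without the 3 libraries with no marker above cortex.
Gja1 rose in hippocampus against cortex by 0.41, 0.66 and 0.45 (1.33-fold, 1.58-fold and 1.37-fold, adjusted p of 0.00998, 0.000144 and 0.00659) and in thalamus against cortex by 0.55, 0.56 and 0.59 (adjusted p of 0.00180, 0.00183 and 0.000458), and all 6 calls passed in each of the 34 fits that left out a library. The hippocampal differences were 0.36, 0.66 and 0.59 without the 3 libraries with no marker above cortex, all called. With the GC correction they were 1.15, 1.03 and 1.03 and still called, and the thalamic ones were 1.08 (called), 0.60 and 0.61 (adjusted p of 0.121 and 0.0775). The corrected hippocampal values were larger than the uncorrected ones. Gja1, at 42.2% GC, itself rose with the GC measure in hippocampus (r = 0.82 after subtraction of group means). Whether the correction removed that relation was not tested.

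Reactive and resting genes were contrasted in each library by the mean log2 level of the 5 reactive genes minus that of the 5 resting genes, as a description without a test. In cortex the index was -3.40 ± 0.04 (SD, n = 3) in WT CON, -3.42 ± 0.16 (n = 4) in GFP-BM CON and -3.24 ± 0.24 (n = 4) in GFP-BM REPOP. In hippocampus it was -2.52 ± 0.32, -2.57 ± 0.45 and -2.67 ± 0.32 (n = 4 each), or -2.42 (n = 3), -2.57 (n = 4) and -2.44 (n = 2) without the 3 libraries with no marker above cortex, and in thalamus -2.83 ± 0.50 (n = 4), -2.96 ± 0.04 (n = 3) and -2.76 ± 0.15 (n = 4). The group means of the reactive genes stood closest to those of the resting ones in hippocampus and farthest beneath them in cortex. The 6 hippocampal and cortical differences between groups were smaller than the pooled SD of the libraries compared. So were those of thalamus against WT CON, while the thalamic difference of GFP-BM REPOP from GFP-BM CON was 0.20 against a pooled SD of 0.12. The GFP-BM REPOP and GFP-BM CON ranges of -2.91 to -2.61 and -3.01 to -2.93 did not overlap but all but touched. In that comparison 0 of the 10 members were without overlap on their own and 0 were called, as were 0.0% of all genes. WT CON thalamus replicate 2 stood at -2.08, far from -3.13 to -3.02 in the other 3.
In hippocampus the mean of the resting genes alone was 4.98 to 5.40 in WT CON, 5.46 to 5.67 in GFP-BM REPOP and 5.67 to 5.98 in GFP-BM CON, with no 2 groups overlapping, though the last 2 all but touched. For single genes 13.7% did not overlap between GFP-BM CON and WT CON, and of the 5 it was Aqp4 alone. In GFP-BM REPOP against GFP-BM CON, and against WT CON, 0 of the 5 were without overlap. No share was computed for means of 5 genes. The log2 differences of GFP-BM CON from WT CON behind that mean were 1.51 for Aqp4 and 1.17 for Slc1a2, against 0.09 for Slc1a3, -0.02 for Aldh1l1 and 0.28 for Gja1. The GC measure described next averaged 2.57, 1.94 and 1.37 in those groups, and its part in the order was not tested.

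**Figure D4:**
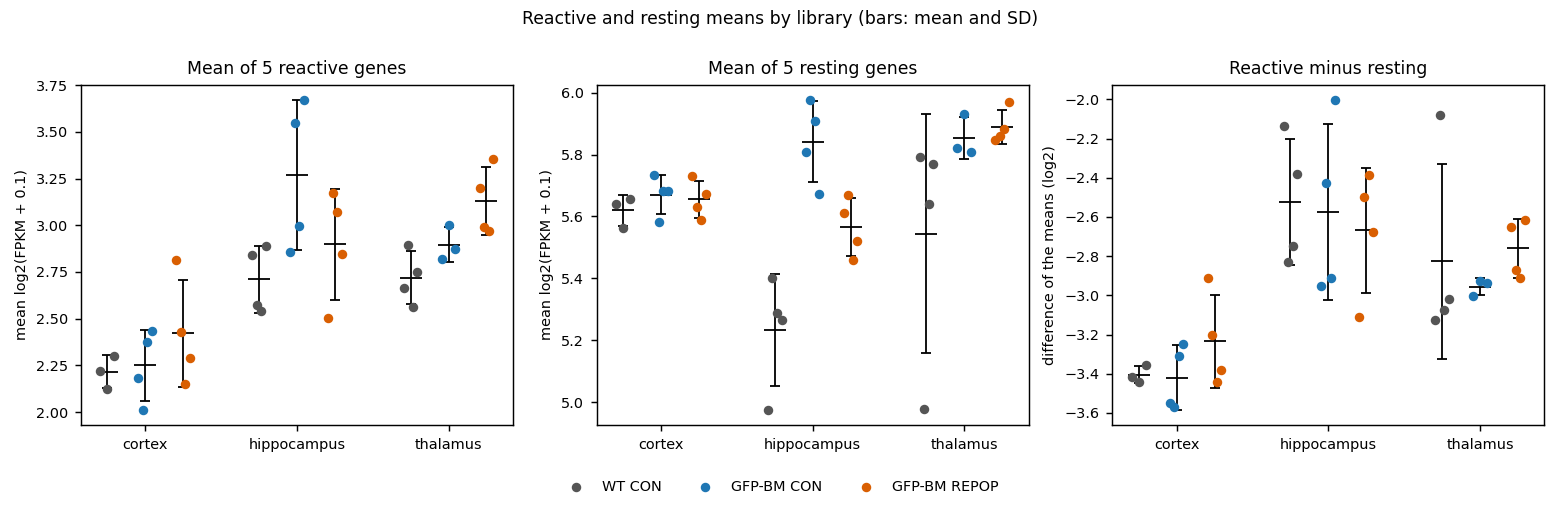
Mean log2 level of the 5 reactive genes minus that of the 5 resting genes in every library, by region and group, with bars for group means and SD, beside the 2 means themselves (log2 of FPKM + 0.1). The index is -3.40 and -3.42 on average in WT CON and GFP-BM CON cortex, and WT CON thalamus replicate 2 stands alone at -2.08.

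Several members moved with the GC measure of the library. Their own transcripts ran from 41.4% GC for Aqp4 and 42.2% for Gja1 to 54.4% for Aldh1l1 and 55.5% for Gfap, against a median of 50.1% over genes. After subtraction of group means, the 10 genes in 3 regions gave 30 correlations with the measure, and 4 passed by r after adjustment over the 30 (two-sided permutation test within groups, 100000 permutations). In the 12 hippocampal libraries these were Slc1a2 (r = -0.92, rho = -0.97, p = 0.0005, adjusted p = 0.0150 for r and 0.00330 for rho), Aqp4 (r = -0.82, rho = -0.78, p = 0.00537, adjusted 0.0403 and 0.0558) and Gja1 (r = 0.82, rho = 0.81, p = 0.00389, adjusted 0.0389 and 0.0434). In the 11 thalamic libraries it was Serpina3n (r = 0.86, rho = 0.85, p = 0.00372, adjusted 0.0389 and 0.0410). By rho Aqp4 did not pass, whereas hippocampal Aldh1l1 did (r = 0.78, rho = 0.84, permutation p of 0.0111 and 0.00472, adjusted 0.0665 and 0.0434). Without the 2 libraries of the region whose GC measure lay farthest from their group mean, r was -0.86, -0.75, 0.79 and 0.70. These were WT CON replicates 1 and 3 in hippocampus and WT CON replicates 1 and 2 in thalamus. The 2 libraries with the highest GC measure had the lowest Slc1a2 and Aqp4 levels of their regions and were both from WT CON mice. The measure was 1.75 to 3.39 in WT CON hippocampus, 0.713 to 2.08 in GFP-BM CON and 1.46 to 2.60 in GFP-BM REPOP, and 1.09 to 3.65, 0.453 to 0.827 and 0.506 to 0.938 in thalamus. In thalamus WT CON overlapped neither GFP-BM group in the measure, so the group and the measure cannot be told apart there. Of Aqp4 and Slc1a2, only Aqp4 is given above with a corrected thalamic group difference. The part of the measure in the group differences of these 2 genes was not tested further.

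**Figure D5:**
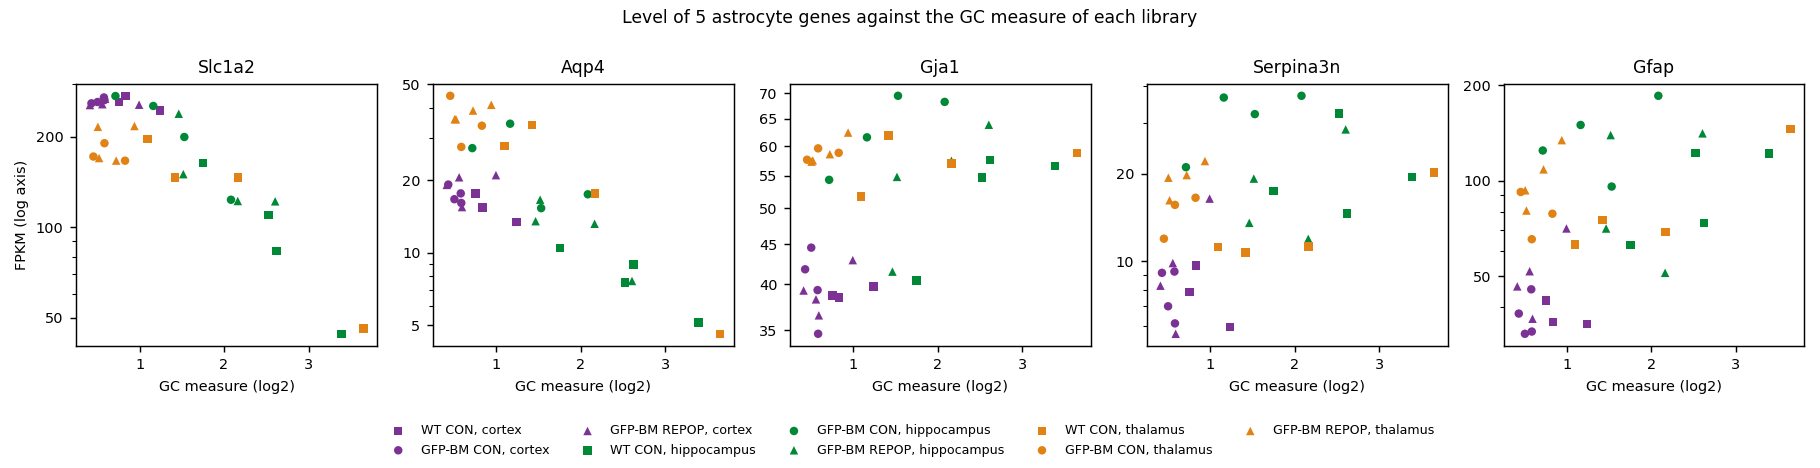
Level of Slc1a2, Aqp4, Gja1, Serpina3n and Gfap (FPKM, log axis) against the GC measure of each library (log2), with colours for regions and symbols for groups. Slc1a2 is lower where the measure is higher in hippocampus (r = -0.92 after subtraction of group means), and WT CON thalamus replicate 2 lies at 3.65.

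Other genes of the same biology were described by counts. Of the other pan-reactive genes 5 of 8 were tested (Lcn2 was not in the table, Steap4 and Cxcl10 were under the filter), and of the genes reported as A1-type and A2-type 10 of 11 and 8 of 12. Of 20 further astrocyte identity genes all were tested, of the interleukin-6 family and STAT3 pathway 8 of 12, and of genes patterned among astrocytes of different regions 8 of 8. None of these 59 genes passed limma's adjusted threshold in any of the 9 treatment comparisons, with 68 of 531 values at an unadjusted p under 0.05. For GFP-BM CON against WT CON such a p was reached by 2347, 3517 and 3045 of all 14710 genes in cortex, hippocampus and thalamus. The counts were 628, 1716 and 139 for GFP-BM REPOP against GFP-BM CON, and 2107, 1423 and 3677 for GFP-BM REPOP against WT CON. By voom on recovered reads 1 of the 59 genes passed the adjusted threshold. Their list medians in hippocampus of GFP-BM CON against WT CON were 0.11, -0.11, -0.02, 0.16, -0.02 and -0.11 in that order, against 0.54 for the 10 members and -0.03 for all genes. Glul, which encodes glutamine synthetase, came closest among the identity genes, at -0.20 in cortex of GFP-BM REPOP against WT CON (adjusted p = 0.0664 by limma), and was the gene called by voom (adjusted p = 0.0466).
Between regions the identity genes rose in thalamus against cortex in 14, 7 and 8 of 20 cases and in hippocampus against cortex in 2, 9 and 4, with none lower, where 30.0%, 12.9% and 14.8% and then 36.9%, 19.8% and 17.5% of all genes were called in either direction. Among them S100b, a calcium-binding protein gene, rose in thalamus by 0.80, 0.76 and 0.69, and Kcnj10, the potassium channel Kir4.1, by 0.77, 0.76 and 0.75. Of the 8 region-patterned genes 4, 4 and 4 rose and 2, 1 and 1 fell in thalamus against cortex, where Agt (angiotensinogen) rose by 3.71, 3.31 and 3.04 and Sparc (a matrix protein) by 2.35, 2.13 and 2.14, and Chrdl1 (a BMP antagonist) fell by 2.09, 1.87 and 1.85. In hippocampus against cortex 4, 3 and 2 of the 10 A1-type genes rose and 0, 1 and 0 fell, among them Amigo2, an adhesion molecule, which rose by 1.56, 2.01 and 0.88. Of the 8 A2-type genes 2, 2 and 0 rose there and 0, 1 and 0 fell, and Cd109 rose by 1.95 and 2.91 in the first 2 groups. Of the 5 pan-reactive genes 1, 1 and 0 rose and 1, 0 and 0 fell: Hspb1, a small heat shock protein, rose by 0.80 and 0.88, while Timp1 fell in WT CON mice by 1.14. Of the 8 genes of the interleukin-6 and STAT3 list 2, 1 and 1 rose and 1, 0 and 0 fell in thalamus against cortex. Il6st, the shared receptor chain with which Osmr pairs, rose there by 0.52, 0.39 and 0.38.

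The genes whose levels resembled the members' most were found by the correlation, across all 34 libraries and 14710 genes, with the mean scaled level of each set. For the reactive set they were Slc14a1 (r = 0.86), C4b (0.86), Cpm (0.82), Capg (0.82) and Tprkb (0.80). For the resting set they were Nfe2l2 (0.79), Plscr4 (0.74), Adhfe1 (0.74), Rida (0.69) and Hus1 (0.68). The libraries share regions, groups and GC measure, so these are descriptions without a p. The 2 sets themselves were not tightly knit: across the 34 libraries the median correlation between 2 reactive members was 0.11 (range -0.18 to 0.91), between 2 resting members -0.07 (-0.67 to 0.59), and between a reactive and a resting member 0.09.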

How the data were processed

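RNA was measured in bulk cortex, hippocampus and thalamus with striatum of perfused mice, in 34 libraries of 9 groups. Per the study's methods and the submitters' processing notes, paired reads were aligned to mm10 with STAR, counted with featureCounts and analysed with edgeR and limma, with versions not given in the sources used here. The authors deposited 1 table of FPKM values (the methods say RPKM), for 16389 Entrez genes. 1 GFP-BM CON thalamus library was not analysed here, and 0 value columns were left unassigned.

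Whole reads were recovered from the steps of the deposited FPKM values: 100% of values came out whole within 0.01 reads, giving 17085018 to 26010509 reads per library. Genes with at least 1 FPKM in at least 3 libraries numbered 15053, of which 343 were of other biotypes, so 14710 protein-coding, lncRNA or unmatched genes were tested. Of the table, 15943 genes matched RefSeq GRCm38.p6. Values were log2(FPKM + 0.1), so fold changes understate those of low genes, and were tested with limma 3.58.1 (moderated, with a mean-variance trend) in R 4.3.3 at a Benjamini-Hochberg adjusted p under 0.05. Treatment groups were compared within each region from a fit of its 3 groups. Regions, and the differences of treatment effects between regions, were compared in 1 model over all 9 groups, the mouse number of the labels being a random block (correlation -0.038), since the same mice gave the regions. All tests are two-sided. As an alternative, limma's voom on the recovered reads called 44, 0 and 0 genes for GFP-BM CON against WT CON in cortex, hippocampus and thalamus, 8, 5 and 0 for GFP-BM REPOP against GFP-BM CON, and 100, 5 and 220 for GFP-BM REPOP against WT CON.

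Other alternatives were pseudocounts of 0.01 and 1, other filters, quantile and median-ratio scaling, a spline correction for GC content and transcript length (13875 genes), fits of 2 or of all groups, a replicate block, and leaving out each library. 3 more were chosen after seeing the data: all biotypes, the GC correction without WT CON replicate 1 of a region, and leaving out the 3 hippocampal libraries with none of 5 hippocampus markers above cortex. All 10 members are named, and of each other list the called genes with the largest changes. 1 gene of the hippocampus marker list is not reported here. The members and lists were chosen with earlier results of these data known. Correlations with the GC measure used 100000 permutations within groups. The tests within a region were checked on simulated counts, drawn independently with the same scatter in every region. That check does not cover the unequal spread of the regions or shifts shared by many genes of a library. Figures and permutations used Python 3.11.15, matplotlib 3.10.9, pandas 2.3.3, numpy 2.4.6 and scipy 1.17.1.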

Additional observations from a re-analysis of the deposited data

Results flagged for a closer look

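In groups of 4 libraries, a value was picked out where its gap to the nearest other library exceeded the share of the group's range that is Dixon's 95% critical value. Chance picks about 1 in 20 groups, or 3.85 of the 77 examined, and 8 were found. WT CON thalamus replicate 2 accounted for 3 of them: Serpina3n at 20.2 FPKM against 10.7 to 11.2 in the others, Osmr at 0.238 FPKM against 0.896 to 1.06, and the reactive minus resting index at -2.08 against -3.13 to -3.02. This library had the highest GC measure of all, 3.65. In hippocampus, WT CON replicate 2, which had no hippocampus marker above cortex, had Slc1a3 at 169 FPKM against 114 to 121, and WT CON replicate 3 had Gja1 at 40.5 FPKM against 54.7 to 57.6. The others were small in size: in GFP-BM REPOP cortex Slc1a2 at 268 FPKM in replicate 3 against 255 to 257 and Aldh1l1 at 13.5 FPKM in replicate 2 against 15.8 to 16.3, and in GFP-BM REPOP thalamus Slc1a3 at 109 FPKM in replicate 3 against 103 to 104.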

How the results depend on the processing

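Over the 9 treatment comparisons, and apart from leaving out single libraries, the count of members called was 0 under each alternative but 3: the GC correction called 1, the fit of all 9 groups 4, and the GC correction without WT CON thalamus replicate 1 (chosen after seeing the data) called 3. By comparison, GFP-BM CON against WT CON in hippocampus gave 3 with all 9 groups and 0 to 2 on leaving out a library. In thalamus it gave 1 with the GC correction and without WT CON replicate 1 together. GFP-BM REPOP against WT CON in thalamus gave 1 with the GC correction, 1 with all 9 groups, 2 with the GC correction without WT CON replicate 1, and 0 to 1 on leaving out a library. Under that joint alternative Gja1 was at -0.82 and -0.79 in the 2 thalamic comparisons with WT CON (adjusted p of 0.0397 and 0.0301), against 0.04 and 0.04 as reported, and Slc1a2 in GFP-BM REPOP thalamus against hippocampus was at -0.48 with the GC correction (adjusted p = 0.0195), against 0.33. The cause was not tested.

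Of the region calls, 28 as reported, the alternatives gave 26 (pseudocount 1, voom) to 35 (GC correction). Leaving out a library gave 5 to 6, 4 to 4 and 1 to 6 calls in hippocampus against cortex of WT CON mice, GFP-BM CON mice and GFP-BM REPOP mice, 1 to 6, 1 to 4 and 1 to 4 in thalamus against cortex, and 0 to 5, 0 to 2 and 1 to 3 in thalamus against hippocampus. Quantile normalization gave 4 and 5 in thalamus against cortex of the transplanted groups, GFP-BM REPOP last, and 1 in WT CON thalamus against hippocampus. In GFP-BM CON thalamus against hippocampus the GC correction gave 3, and leaving out the 3 hippocampal libraries with no marker above cortex gave 2. Over single members, 290 of 307 called values kept direction and call under the alternatives other than leaving out 1 library, 17 lost the call, and 25 were gained.

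The title numbers did not pair the libraries, since same-numbered libraries of different groups carried different mouse numbers in their labels. Deviations of same-numbered libraries correlated from -0.43 to 0.49. Those of libraries from the same mouse ran from -0.58 to 0.44, so this correlation could not show pairing. A replicate block, alone or with the GC correction, called 0 members in the treatment comparisons. Without the mouse as a block (no replicate block) the regions gave 28.

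The fit of all 9 groups called 2849, 665 and 411 genes in hippocampus for GFP-BM CON against WT CON, GFP-BM REPOP against GFP-BM CON and GFP-BM REPOP against WT CON, against 0, 4 and 2 within the region, 1347 and 1954 in thalamus for the comparisons with WT CON (0 and 123), and 0 and 27 in cortex for the same (47 and 108). The GC correction called 118, 1 and 11 in hippocampus, 2 in GFP-BM CON against WT CON thalamus, and 18 in GFP-BM REPOP against GFP-BM CON cortex (7 as reported), and, with WT CON thalamus replicate 1 left out as well, 1576 and 2145 in the thalamic comparisons with WT CON. Leaving out that library alone gave 1179 and 1788, and in hippocampus for GFP-BM CON against WT CON leaving out WT CON replicate 3 or GFP-BM CON replicate 4 gave 963 or 795. Quantile normalization called 318 and 496 in the thalamic comparisons with WT CON. With 3 or 4 libraries a group and a hippocampal residual SD of 0.292, the 95% interval of Gfap there spanned -0.19 to 1.32 for GFP-BM CON against WT CON. Cd44 and Osmr rest on as few as 33 and 24 reads.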

Other observations

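After subtraction of the group means, the genes most like the reactive set across the 34 libraries were Pmp22 (r = 0.82), a myelin gene, Padi2 (0.81), Ctss (0.76), a microglial protease gene, and Insc (0.76), besides a row without a symbol (0.78). For the resting set they were Plpp3 (0.78), Sox2 (0.72), Gsap (0.72), Anp32e (0.71) and Hmgn3 (0.71). Within the resting set the member pairs then ran from -0.87 for Slc1a2 with Aldh1l1 to 0.75, and Gfap and Serpina3n were the closest reactive pair before that subtraction (r = 0.91). These correlations are descriptions over libraries that share mice, regions and GC measure.

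Oligodendrocyte markers summed to 1386 to 1851 FPKM in thalamus and 822 to 1122 in cortex. Of the hippocampal libraries with no marker above cortex, GFP-BM REPOP replicate 4 had striatum markers at 1231 FPKM in sum, against 56.4 to 140 in the other libraries of its group, and GFP-BM REPOP replicate 1 had cortex markers at 221, within the 172 to 223 of the cortical libraries. The third, WT CON replicate 2, had thalamus markers summing to 256 FPKM, where WT CON thalamus had 169 to 311 and the remaining hippocampal libraries of that group 57.0 to 134.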
